A study of Mus musculus with 13 samples.

Results

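The genes described here are known as markers or products of fibroblasts. They were chosen by symbol and looked up in the deposited tables, where they are 10 of 46679 gene IDs. They are Tcf21, Pdgfra, Inmt, Npnt and Fgf10, which are known from the fibroblasts of the healthy lung, and Dcn, Lum, Fap, Cthrc1 and Thy1, which are known from connective tissue and from activated or tumor-associated fibroblasts. The RNA came from female FVB mice aged 10 weeks. Normal lungs came from 4 mice without a tumor (6886, 6887, 6888 and 6893). Tumor-bearing lungs came from 4 mice with a mammary tumor (6877, 6879, 6880 and 6881). The mammary tumors of 3 of those mice (6877, 6880 and 6881) were sequenced as well. Each tumor came from 250000 Met1 cells, a mouse breast cancer line, put into an inguinal mammary fat pad 2 weeks before tissue was taken. The study asked how a distant mammary tumor affects gene expression in the lung.

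Fibroblasts build and remodel the extracellular matrix and send growth factors to neighboring epithelium and vessels. In the lung, alveolar fibroblasts lie between the capillaries and the epithelium of the air sacs, adventitial fibroblasts lie around larger vessels and airways, and both carry the platelet-derived growth factor receptor PDGFRA. In tumors, fibroblasts of the host tissue can become activated and then secrete fibrillar collagens, proteoglycans and peptidases. A tumor grown from an injected line holds carcinoma RNA and host RNA together, and no library of Met1 cells alone was analysed here, so carcinoma and stroma cannot be told apart. In bulk tissue, fewer cells of a type and less RNA per cell cannot be told apart either.

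Libraries held 8321333 to 13983506 estimated counts. They were prepared in 2 batches: all tumors, normal lungs 6887 and 6893 and tumor-bearing lung 6877 are of batch 2, and the other tumor-bearing lungs are of batch 1. Mice 6886 and 6888 have a library in each batch, of which that of batch 1 was used. Protein-coding genes took 68.2 to 69.5% of counts in those batch 1 libraries and 45.6 to 59.0% in every other library. The labelled tissues matched their defining markers: the summed level of 4 genes of alveolar type 2 cells was 317 to 1389 TPM (the length-scaled transcript share) in the 8 lungs and 0.768 to 2.74 TPM in the tumors, and 4 genes of simple epithelium summed to 29.5 to 52.7 TPM in the tumors and 4.18 to 23.8 TPM in the lungs.

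Of the 10 genes, 5 were lower and 3 were higher in tumors than in normal lungs, and Dcn and Cthrc1 did not pass the test (edgeR quasi-likelihood test with preparation batch as a term, Benjamini-Hochberg adjusted p below 0.05 over all genes tested). All 5 that fell are the genes known from healthy lung fibroblasts. All 3 that rose, Lum, Fap and Thy1, belong to the 5 known from connective tissue and activated fibroblasts. The genes were chosen with earlier results of these data known, so this match of class and direction is no independent test. The Fap call was lost without normal lung 6887 or 6893. Against tumor-bearing lungs the same 5 were lower and the same 3 were higher. Tumors and lungs differ widely, which sets the scale for these counts: 49.3% of all genes tested passed against normal lungs and 46.3% against tumor-bearing lungs. In all, 24.5% were higher and 24.7% were lower in tumors than in normal lungs, and 22.6% were higher and 23.7% lower than in tumor-bearing lungs. The median log2 difference of the 10 genes was −0.89 against normal and −0.58 against tumor-bearing lungs, beside −0.04 and −0.10 over all genes tested. These comparisons share the tumor libraries.

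**Figure D1:**
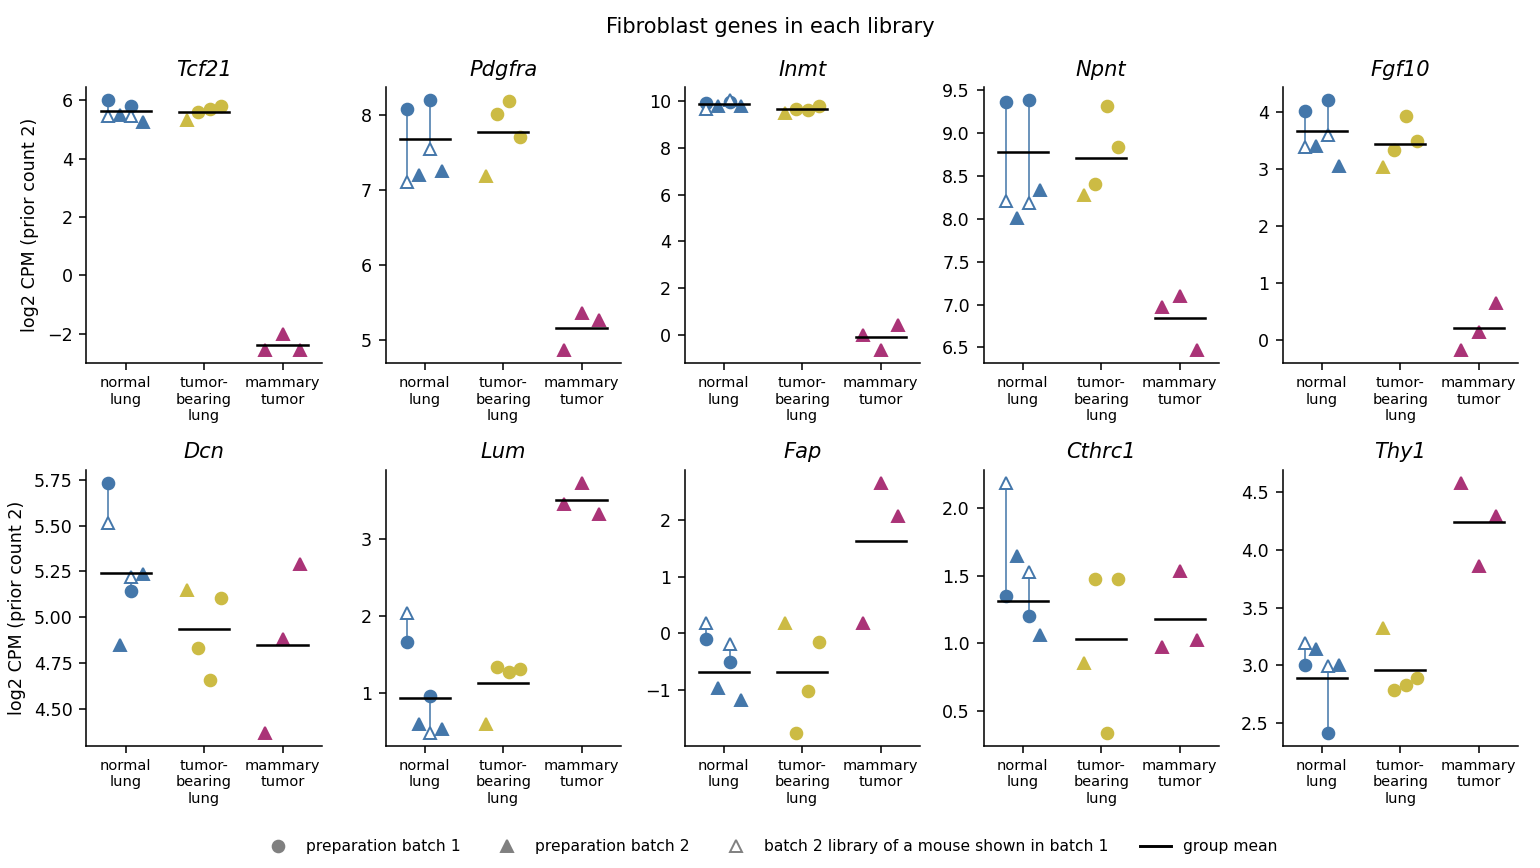
Level of each gene in each library, as log2 CPM (prior count 2); each panel has its own vertical scale, circles are preparation batch 1, triangles batch 2, and open triangles the batch 2 library of a mouse joined by a line to its batch 1 library. Black lines are group means over mice; tumors lie below every lung for Tcf21, Pdgfra, Inmt, Npnt and Fgf10 and above every lung for Lum and Thy1.

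The libraries did not overlap for 5 genes that were lower and 3 that were higher in tumors than in normal lungs, where 26.4% and 27.2% of all genes tested were separated in this way. Against tumor-bearing lungs 5 were separated below and 2 above, beside 27.4% and 26.6% of all genes. Fap was the gene whose libraries overlapped there although it passed the test. Its separation from normal lungs rests on the batch 1 library of mouse 6886 (0.767 CPM), since the batch 2 library of that mouse, at 0.967 CPM, was above tumor 6877 at 0.958 CPM.

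Tcf21 encodes a basic helix-loop-helix (bHLH) transcription factor that marks lung fibroblasts, including the lipid-laden fibroblasts of the air sacs. The gene lies on chromosome 10 at 22817281 to 22820174 (GRCm38, minus strand). In counts relative to the scaled size of a library (CPM), its level was 64.9, 44.7, 55.5 and 37.9 CPM in normal lungs 6886, 6887, 6888 and 6893. It was 40.1, 48.7, 51.8 and 56.4 CPM in tumor-bearing lungs 6877, 6879, 6880 and 6881. The tumors held 1 estimated count in all, in tumor 6880, against 2414 counts in the normal lungs and 2390 in the tumor-bearing lungs. Every lung held Tcf21 at a similar level and the tumors were at or near 0. From these counts and the library sizes, Tcf21 was 1744-fold lower in tumors than in normal lungs (95% counting interval 313 to 68895) and 1702-fold lower than in tumor-bearing lungs (305 to 67261). The adjusted p of edgeR was 9.85e-09 and 1.90e-08.

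Inmt encodes a methyltransferase of small amines such as tryptamine, and its RNA is abundant in lung fibroblasts. The gene lies on chromosome 6 at 55170626 to 55175043 (minus strand). Its level was 955, 882, 997 and 879 CPM in the normal lungs and 714, 803, 783 and 891 CPM in the tumor-bearing lungs, in the order of mice above. In tumors 6877, 6880 and 6881 it was 0.838, 0.468 and 1.17 CPM, from 7, 6 and 15 counts. Inmt was the steadiest of the 10 genes between mice of either lung group (928 ± 57.6 CPM, SD, n = 4 in normal lungs) and was near 0 in every tumor. The fitted log2 difference was −10.04 (SE 0.32, adjusted p = 5.11e-09) against normal lungs and −9.78 (SE 0.33, adjusted p = 9.74e-09) against tumor-bearing lungs. Of the 2 small-molecule methyltransferase relatives listed, Nnmt, which methylates nicotinamide, was tested: it was at 2.18 ± 1.17 CPM (SD, n = 3) in tumors and 0.867 ± 0.668 CPM (SD, n = 4) in normal lungs and did not pass (log2 difference 1.01, SE 0.76, adjusted p = 0.296; 1.70 without normal lung 6887).

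The stretches upstream of Tcf21 and Inmt are printed because these genes fell together from a high to a near-zero level, with that of Npnt, which fell least, as a contrast. The set of RefSeq (GRCm38.p6) upstream sequences used here covered 5 of the 10 genes, namely Tcf21, Pdgfra, Inmt, Npnt and Fgf10. Each run is the 250 bases before the RefSeq start, read 5′ to 3′ on the strand of the gene: chr10:22820144-22820393 (minus) for Tcf21, chr6:55174991-55175240 (minus) for Inmt and chr3:132950292-132950541 (minus) for Npnt. Capitals mark the motifs searched, on both strands and without overlap: the E-boxes CAGCTG and CAGATG, a class of site bound by bHLH proteins, and the TATA box letters TATAAA.
Tcf21: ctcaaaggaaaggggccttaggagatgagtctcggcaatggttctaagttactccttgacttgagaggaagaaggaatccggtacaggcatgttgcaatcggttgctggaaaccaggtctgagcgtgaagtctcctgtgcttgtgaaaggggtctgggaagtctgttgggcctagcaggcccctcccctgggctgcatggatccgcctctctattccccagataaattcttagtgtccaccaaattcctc
Inmt: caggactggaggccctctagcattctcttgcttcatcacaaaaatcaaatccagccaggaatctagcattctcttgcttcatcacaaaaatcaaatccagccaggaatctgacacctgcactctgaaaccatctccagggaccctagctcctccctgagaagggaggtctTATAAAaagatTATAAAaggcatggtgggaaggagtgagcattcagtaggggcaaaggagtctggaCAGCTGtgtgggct
Npnt: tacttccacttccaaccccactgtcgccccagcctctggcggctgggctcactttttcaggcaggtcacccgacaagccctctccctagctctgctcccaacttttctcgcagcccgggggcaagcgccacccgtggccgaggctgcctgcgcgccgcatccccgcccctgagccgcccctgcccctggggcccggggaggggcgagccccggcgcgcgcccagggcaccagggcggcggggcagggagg
The Inmt stretch held CAGCTG once, 14 bases before the RefSeq start, and TATAAA at 80 and 69 bases before it. CAGATG was found in the stretches of Pdgfra, 182 bases before the RefSeq start, and of Fgf10, 136 bases before it. RefSeq starts can differ from the GENCODE gene positions given in this text. The last bases of the Tcf21 and Inmt stretches, with the CAGCTG of Inmt, lie inside those positions. The whole Fgf10 stretch, chr13:118714449-118714698, lies inside the gene as given below. Neither the Tcf21 nor the Npnt stretch held any of these letters. Over all 32851 upstream stretches of this length, 13% held CAGCTG, 14.4% CAGATG and 12.4% TATAAA. The number of CG pairs was 0 for Inmt, 5 for Tcf21 and 21 for the Npnt stretch printed, beside a median of 6 over all stretches. Npnt had a second RefSeq start, whose stretch (chr3:132949815-132950064, minus) held 23 CG pairs and none of the motifs.

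Pdgfra encodes a receptor tyrosine kinase for platelet-derived growth factors that most fibroblasts carry. It lies on chromosome 5 at 75152292 to 75198215 (plus strand). Pdgfra was at 270, 147, 294 and 152 CPM in the normal lungs and 145, 259, 291 and 209 CPM in the tumor-bearing lungs. The tumors held 28.8, 40.7 and 38.4 CPM, below every lung. Within each lung group the libraries of batch 1 were the high ones. The log2 difference was −2.09 (SE 0.20, adjusted p = 4.90e-06) against normal lungs, a 4.25-fold lower level, and −1.97 (SE 0.21, adjusted p = 1.74e-05) against tumor-bearing lungs. Exons of Pdgfra share bases with Mir7025 on the same strand and with Gm42802 and Gm42803 on the opposite strand, which reached at most 1.06 CPM in any library. Whether the counting used strand is not given in the sources used here.

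All 6 other genes listed as PDGF ligands and receptors passed the test in the comparison with normal lungs, 2 higher and 4 lower. Over all genes tested 49.3% passed there. The growth factor gene Pdgfc, a ligand of PDGFRA, rose from 1.32 to 32.7 CPM (means over mice; log2 difference 4.23, SE 0.37, adjusted p = 2.51e-06), and the receptor-like gene Pdgfrl also rose. Pdgfb, a ligand made by endothelium and platelets, fell from 90.4 to 18.8 CPM (log2 difference −1.93, SE 0.22, adjusted p = 2.21e-05). Pdgfa, Pdgfd and the pericyte receptor gene Pdgfrb were lower as well. Against tumor-bearing lungs the same 2 were higher and the same 4 lower, but on log2 TPM limma called 1 lower at either pseudocount.

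Npnt encodes nephronectin, a matrix protein of basement membranes that binds integrins and is made by fibroblasts and by epithelium. It lies on chromosome 3 at 132881745 to 132950291 (minus strand). Npnt was at 659, 257, 668 and 321 CPM in the normal lungs and 310, 338, 635 and 455 CPM in the tumor-bearing lungs. The tumors held 125, 137 and 88.3 CPM. All tumors were below all lungs, but the lungs spread widely. In the tumors Npnt had the highest mean of the 10 genes per length, although in tumor 6881 Dcn was above it (2.00 against 1.89 TPM). The log2 difference was −1.45 (SE 0.28, adjusted p = 0.00102) against normal lungs and −1.18 (SE 0.29, adjusted p = 0.00600) against tumor-bearing lungs. Of the 4 markers of simple epithelium, Krt8, Krt18 and Epcam were higher in tumors than in normal lungs and Cdh1 was not called, none at 0 counts, with the sums given above. Their part in the Npnt values was not tested.

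Among 5 genes related to nephronectin or encoding its integrin partners, 2 were higher and 1 lower in tumors than in normal lungs. This is to be read beside the 24.5% higher and 24.7% lower of all genes tested. Egfl6, which encodes the nearest relative of nephronectin, fell from 29.9 to 0.158 CPM (log2 difference −7.60, SE 0.34, adjusted p = 2.45e-08). Itgb3, an integrin beta subunit, rose from 25.2 to 53.4 CPM (log2 difference 1.19, SE 0.23, adjusted p = 0.000993), and so did its partner subunit Itgav. Against tumor-bearing lungs the same 3 genes passed in the same directions.

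Fgf10 encodes a fibroblast growth factor that mesenchyme sends to lung epithelium, where the receptor encoded by Fgfr2 receives it. It lies on chromosome 13 at 118669791 to 118792115 (plus strand). Its level was 16.2, 10.4, 18.5 and 8.21 CPM in the normal lungs and 8.02, 9.94, 15.1 and 11.1 CPM in the tumor-bearing lungs. The tumors held 0.718, 0.936 and 1.40 CPM, from 6, 12 and 18 counts, all below every lung. The log2 difference was −3.23 (SE 0.31, adjusted p = 5.95e-06) against normal lungs and −2.81 (SE 0.33, adjusted p = 3.45e-05) against tumor-bearing lungs. Gm16263, which shares exon bases with Fgf10 on the opposite strand, reached at most 0.178 CPM.

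Fgf10, the gene of its receptor and Fgf7 were lower in tumors, while the feedback genes of FGF signaling that passed against normal lungs were higher. Of 11 listed genes, 6 were higher and 2 lower in tumors than in normal lungs, beside 24.5% and 24.7% of all genes tested. The 2 lower were Fgfr2, from 123 to 2.48 CPM (log2 difference −5.36, SE 0.35, adjusted p = 3.27e-07; −6.04 without tumor 6881), and Fgf7, another ligand of that receptor, from 9.65 to 0.548 CPM (log2 difference −3.75, SE 0.35, adjusted p = 4.44e-06). The 6 higher were the receptor Fgfr1 and the targets or inhibitors Dusp6, Etv4, Spred1, Spry2 and Spry4. Etv4 was too scarce in lungs to be tested between the lung groups. It entered both tumor comparisons through the tumors, where it is high, so that its call had to be in this direction. Without normal lung 6893 3 of the 11 were higher. Against tumor-bearing lungs 5 were higher and 3 lower, with Spry4 no longer called and Spry1 called lower.

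Dcn and Lum encode decorin and lumican, small leucine-rich proteoglycans that bind collagen fibrils. They are neighbors on chromosome 10, Dcn at 97479609 to 97518143 and Lum at 97565128 to 97572703, both on the plus strand and 46984 bp apart. Kera and Epyc, the next relatives along the chromosome, were at 0 and at most 0.0966 CPM. Dcn was at 53.1, 28.6, 35.2 and 37.5 CPM in the normal lungs, 35.4, 28.3, 25.0 and 34.2 CPM in the tumor-bearing lungs and 20.5, 29.3 and 39.0 CPM in the tumors. The 3 groups overlapped. The log2 difference of tumors was −0.33 against normal lungs (95% interval −0.96 to 0.30, adjusted p = 0.376) and 0.02 against tumor-bearing lungs (−0.66 to 0.69, adjusted p = 0.967). These intervals leave room for a moderate difference in either direction.

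Lum, in contrast, was higher in every tumor than in any lung. It was at 2.99, 1.35, 1.78 and 1.28 CPM in the normal lungs, from 14 to 39 counts, and 1.35, 2.36, 2.25 and 2.32 CPM in the tumor-bearing lungs. The tumors held 10.8, 13.03 and 9.83 CPM. The log2 difference was 3.05 (SE 0.31, adjusted p = 9.51e-06) against normal lungs, an 8.28-fold higher level, and 3.07 (SE 0.35, adjusted p = 2.62e-05) against tumor-bearing lungs. The ratio of Dcn to Lum, both per length in TPM, was 19.3 to 32.4 in the normal lungs, 12.2 to 28.2 in the tumor-bearing lungs and 2.08 to 4.33 in the tumors. This ratio was chosen after the values were seen and is given without a test.

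Among the other small leucine-rich proteoglycans 8 of 11 listed were tested and 0 were higher. Of these, 6 were lower in tumors than in normal lungs (Bgn, Chad, Ecm2, Ogn, Podn and Prelp), beside 24.7% of all genes tested. The median log2 difference of the 8 was −3.00, beside −0.04 over all genes. Ogn, which encodes osteoglycin, fell from 112 to 3.50 CPM (log2 difference −4.77, SE 0.35, adjusted p = 7.46e-07). Prelp, which anchors basement membranes to connective tissue, fell from 316 to 12.1 CPM (log2 difference −4.30, SE 0.37, adjusted p = 2.22e-06). Against tumor-bearing lungs 5 of the 8 were lower, without Bgn.

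Fap encodes a membrane serine peptidase known from activated fibroblasts and scarce in healthy tissue. It lies on chromosome 2 at 62500943 to 62574075 (minus strand). Fap passed the filter on low counts largely through tumors 6880 and 6881, and was too scarce to be tested between the lung groups. It was close to the detection limit in the lungs, with 10, 4, 6 and 3 counts in the normal lungs and 10, 1, 5 and 10 in the tumor-bearing lungs. The tumors held 8, 79 and 52 counts. In CPM this was 0.274 to 0.767 in normal lungs, 0.124 to 0.966 in tumor-bearing lungs and 0.958, 6.16 and 4.05 in tumors 6877, 6880 and 6881. Tumor 6877 was at the level of its own lung (0.958 and 0.966 CPM), while the other 2 tumors were above every lung. The log2 difference was 2.90 (SE 0.84, 95% interval 1.07 to 4.73, adjusted p = 0.0127) against normal lungs and 2.73 (SE 0.85, adjusted p = 0.0208) against tumor-bearing lungs.

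The Fap calls depended on single libraries and on the fit. Against normal lungs Fap no longer passed when mouse 6887 (2.58, adjusted p = 0.0705) or 6893 (2.49, adjusted p = 0.0759) was left out, and the value was 3.57 without tumor-bearing lung 6877. Against tumor-bearing lungs it was lost with the mouse as a block (1.51, adjusted p = 0.178), without tumor 6880 (2.18, adjusted p = 0.0693), with the batch 2 libraries of the repeated normal lungs (1.96, adjusted p = 0.168) and with limma voom (adjusted p = 0.0538), and it was 4.21 without tumor-bearing lung 6877. Of 6 prolyl peptidase relatives of FAP, 0 were higher, Dpp4 and Dpp8 were lower in tumors than in normal lungs, and 4 did not pass. This is to be read beside the 24.5% higher and 24.7% lower of all genes tested. Dpp4, the closest relative, fell from 69.3 to 3.61 CPM (log2 difference −3.93, SE 0.49, adjusted p = 4.36e-05), and the difference was −4.91 without tumor 6881. Dpp8, a cytosolic peptidase, fell from 100.4 to 54.9 CPM (log2 difference −0.74, SE 0.15, adjusted p = 0.00164). With the mouse as a random block 4 of the 6 were lower.

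Thy1 encodes a surface glycoprotein of fibroblasts, neurons and, in mice, T cells. It lies on chromosome 9 at 44043384 to 44048579 (plus strand). Its level was 7.83, 8.64, 5.15 and 7.85 CPM in the normal lungs and 9.86, 6.71, 6.95 and 7.25 CPM in the tumor-bearing lungs. The tumors held 23.8, 14.4 and 19.4 CPM, all above every lung. The log2 difference was 1.17 (SE 0.25, adjusted p = 0.00216) against normal lungs, a 2.25-fold higher level, and 1.01 (SE 0.28, adjusted p = 0.0106) against tumor-bearing lungs. On log2 TPM with limma Thy1 did not pass against normal lungs, with adjusted p = 0.0622 and 0.0972 at pseudocounts of 1 and 0.1. Of 8 T cell markers, Cd8a was higher and Cd2 lower in tumors than in normal lungs, 6 did not pass, and none were at 0 counts. Their summed level was 4.56 to 7.82 TPM in normal lungs, 3.35 to 5.65 TPM in tumor-bearing lungs and 8.43, 2.05 and 11.7 TPM in tumors 6877, 6880 and 6881.

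Cthrc1 encodes a secreted collagen triple helix repeat protein known from activated fibroblasts and from noncanonical Wnt signaling. It lies on chromosome 15 at 39076932 to 39087121 (plus strand). It was scarce in every group: 2.38, 2.96, 2.13 and 1.92 CPM in the normal lungs, 1.64, 2.61, 1.09 and 2.61 CPM in the tumor-bearing lungs and 1.80, 2.73 and 1.87 CPM in the tumors. All groups overlapped, on 15 to 36 counts a library. The log2 difference of tumors was −0.11 against normal lungs (95% interval −1.04 to 0.82, adjusted p = 0.853) and 0.16 against tumor-bearing lungs (−0.92 to 1.24, adjusted p = 0.813). Differences of the sizes within these intervals remain possible.

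Of 9 noncanonical Wnt genes, 2 were higher (Fzd6 and Vangl2) and 2 lower (Celsr1 and Prickle1) in tumors than in normal lungs, a share near the 49.3% of all genes tested. Celsr1, an atypical cadherin of planar polarity, fell from 40.1 to 2.58 CPM (log2 difference −3.73, SE 0.27, adjusted p = 7.14e-07). Prickle1, a cytoplasmic member of the same system, fell from 69.9 to 10.9 CPM (log2 difference −2.32, SE 0.22, adjusted p = 5.07e-06). Leaving out 1 library gave 1 to 2 higher and 2 to 3 lower, and a random block for the mouse gave 4 lower. The 4 protein-coding genes whose profile over the 11 libraries lay nearest to that of Cthrc1, by the mean absolute difference of centered log2 CPM, were Uap1l1 (0.18), Tada2b (0.18), Rhbdd2 (0.19) and Spice1 (0.19). That their group means were similar follows from this choice, for example 22.5, 23.5 and 24.2 CPM for Uap1l1 in normal lungs, tumor-bearing lungs and tumors.

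**Figure D2:**
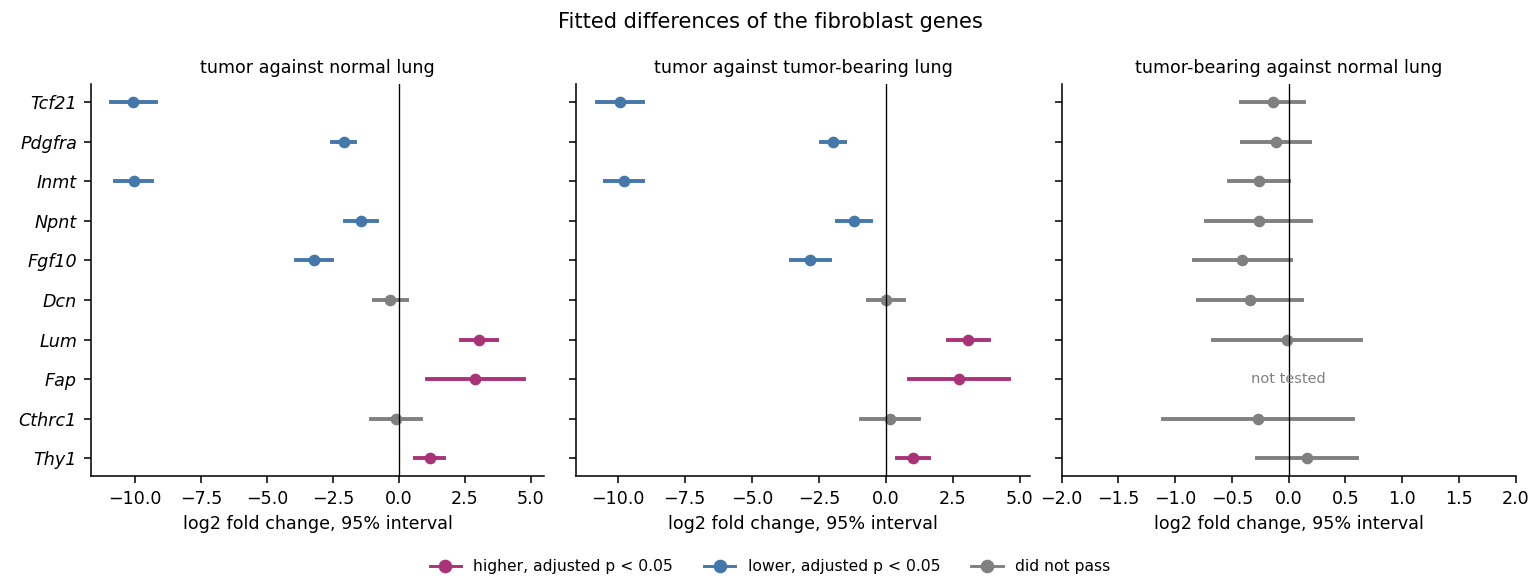
Fitted log2 fold changes of the 10 genes with 95% intervals (edgeR with preparation batch) in the 3 comparisons; the right panel has a narrower scale. Tumors were lower for Tcf21, Pdgfra, Inmt, Npnt and Fgf10 and higher for Lum, Fap and Thy1 in both tumor comparisons, and every interval of the lung comparison spans 0; Fap was not tested there.

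The profile of Tcf21 was shared by other genes of the lung. By the same measure the nearest were Nkx2-1 (0.10), a transcription factor of lung epithelium, Tbx4 (0.20), a transcription factor of lung mesenchyme, Rtkn2 (0.22), a gene of alveolar type 1 cells, and Scnn1g (0.25), a sodium channel subunit of epithelium. Nkx2-1 was at 72.1, 79.5 and 0.144 CPM and Tbx4 at 48.8, 48.5 and 0.0659 CPM in normal lungs, tumor-bearing lungs and tumors. Of the bHLH relatives and partners of TCF21, 4 of 7 were tested. Tcf23 had 59 counts in normal lungs, 43 in tumor-bearing lungs and 0 in tumors, which makes it at least 14.2-fold and at least 10.2-fold lower on a floor of 3 counts over the group. Tcf4, a common partner of tissue bHLH factors, fell from 168 to 83.5 CPM (log2 difference −0.95, SE 0.22, adjusted p = 0.00336), Tcf3 was higher, and Tcf12 did not pass at −0.12.

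Most of the lung alveolar fibroblast genes fell. Of 15 genes, 13 were lower and 1, G0s2, was higher in tumors than in normal lungs, and Cxcl14 did not pass at −0.26 (median log2 difference −4.29, beside −0.04 over all genes). Over all genes tested 24.7% were lower and 24.5% higher. Col13a1, a membrane collagen of alveolar fibroblasts, fell from 55.1 to 0.430 CPM (log2 difference −6.18, SE 0.31, adjusted p = 4.02e-08). Fgfr4, another receptor of fibroblast growth factors, fell from 45.3 to 0.264 CPM (log2 difference −7.01, SE 0.37, adjusted p = 5.75e-08). Against tumor-bearing lungs the counts were again 13 and 1, and there G0s2 was not called with the mouse as a block or when any library other than tumor 6880 or normal lung 6888 was left out. On log2 TPM with a pseudocount of 1, limma called 7 lower against tumor-bearing lungs.

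Of 13 adventitial fibroblast genes, 8 were lower in tumors than in normal lungs, Serpinf1 was higher and 4 did not pass (median −1.36). Over all genes tested 24.7% were lower and 24.5% higher. Gsn, which encodes the actin-severing protein gelsolin, fell from 1754 to 68.2 CPM (log2 difference −4.18, SE 0.32, adjusted p = 1.06e-06). Clec3b, which encodes tetranectin, fell from 73.5 to 2.48 CPM (log2 difference −4.66, SE 0.38, adjusted p = 1.64e-06), and the difference was −5.26 without tumor 6881. Serpinf1 was no longer called without tumor 6877 or 6881 or normal lung 6887 or 6893. Against tumor-bearing lungs 7 were lower and none higher.

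Of 20 genes listed for activated and tumor fibroblasts, 9 were higher and 4 lower in tumors than in normal lungs. Over all genes tested the shares were 24.5% and 24.7%. Of the 20, 15 could also be tested between the lung groups. The other 5, Col11a1, Inhba, Lrrc15, Mmp13 and Grem1, were too scarce in lungs and entered the tumor comparisons through the tumors, where they are high, so that 4 of the 9 higher calls had to be in this direction. The 9 were Col1a1, Col8a1, Col11a1, Col12a1, Inhba, Lrrc15, Ltbp2, Mmp13 and Tnc, and the 4 were Mmp11, Pdpn, Sparc and Sulf1. Lrrc15, a membrane protein of activated fibroblasts, had 3 counts in the normal lungs and 473 in the tumors, a ratio of 218 (95% counting interval 74.2 to 1062) at 0.0662 and 14.6 CPM. Ltbp2, a protein of elastic fibers, rose from 57.9 to 148 CPM (log2 difference 2.34, SE 0.20, adjusted p = 2.41e-06). Pdpn is also known from alveolar type 1 cells, whose 4 markers summed to 64.2 to 234 TPM in the lungs and 11.6 to 24.8 TPM in the tumors, 3 lower and Aqp5 higher. Against tumor-bearing lungs the counts were again 9 and 4, with Postn in place of Inhba.

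**Figure D3:**
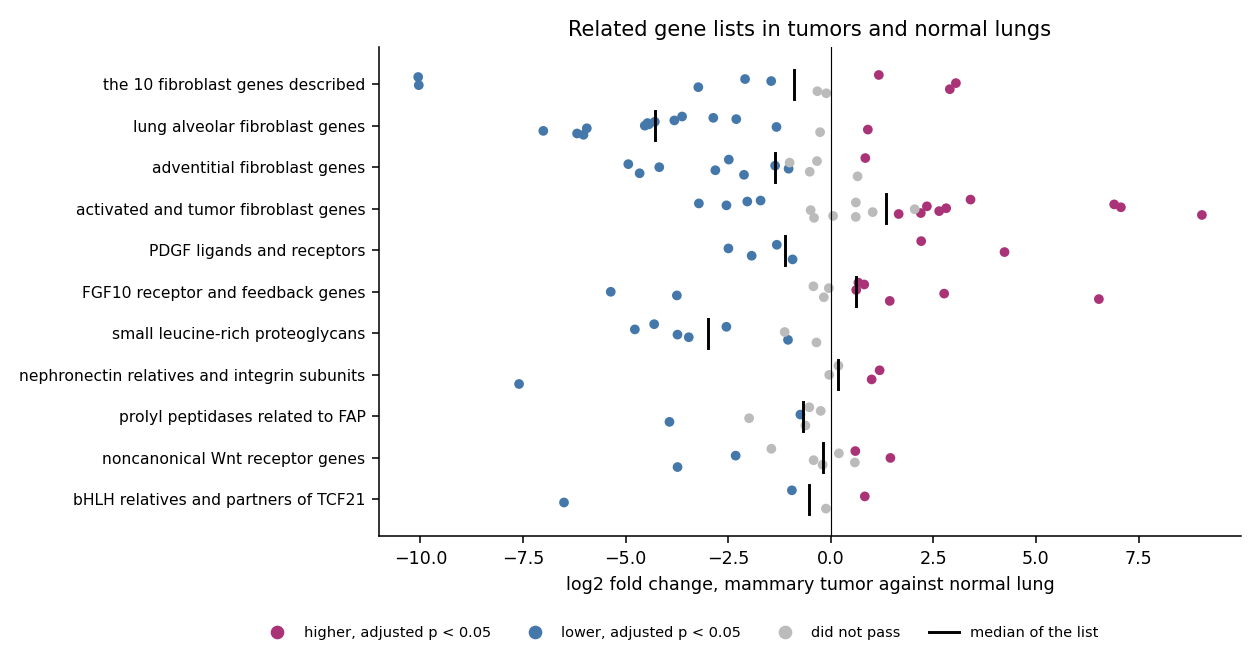
Log2 fold change of each tested gene in tumors against normal lungs, by list, with the 10 genes described at the top; points are genes, colored by call, and black bars are list medians. The alveolar fibroblast list has a median of −4.29; the activated and tumor fibroblast list holds 5 genes that were abundant enough to be tested in tumors alone, and Tcf23 in the bottom list had 0 counts in tumors, so that its plotted value depends on the prior count.

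Markers of other cells moved with these groups, and their part in the results on Dcn, Lum, Fap and Thy1 was not tested. Their calls are to be read beside the 24.5% higher and 24.7% lower of all genes tested. All 3 adipocyte markers tested of 4 were higher in tumors than in normal lungs, with sums of 2.31, 4.21 and 5.86 TPM in tumors 6877, 6880 and 6881, 0.290 to 0.492 TPM in normal lungs, where Lep was at 0 counts, and 0.126 to 0.377 TPM in tumor-bearing lungs. The batch 2 libraries of normal lungs 6886 and 6888 were higher in this sum, at 1.21 and 0.813 TPM. Adipoq was too scarce to be tested between the lung groups and entered through the tumors, where it is high. All 4 mesothelial markers, from a cell layer that shares several genes with fibroblasts, were lower in tumors than in normal lungs, with sums of 0.792 to 5.43, 0.414 to 1.92 and 0.0224 to 0.0540 TPM in normal lungs, tumor-bearing lungs and tumors, and Upk3b at 0 counts in tumors. The batch 1 and batch 2 libraries of normal lung 6886 lay far apart in this sum, at 5.43 and 0.474 TPM. Of 7 smooth muscle and pericyte markers, 5 were lower and Rgs5 was higher, with sums of 3.56 to 10.0, 2.85 to 6.09 and 0.953 to 1.42 TPM. All 4 endothelial markers were lower (31.8 to 101, 25.0 to 56.7 and 1.07 to 1.82 TPM), as were all 3 club cell markers (1741 to 2472, 842 to 2113 and 0.296 to 2.94 TPM). Skeletal muscle markers summed to at most 0.352 TPM in any library of the 11, with Myh4 at 0 counts in the normal lungs and the tumors. The batch 2 library of normal lung 6886, which is not among the 11, was higher in this sum, at 1.20 TPM.

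Compared per length, the 10 genes had the same order in normal and in tumor-bearing lungs: Inmt, Npnt, Pdgfra, Tcf21, Dcn, Thy1, Fgf10, Cthrc1, Lum and Fap, from 111 ± 33.7 TPM to 0.0327 ± 0.0234 TPM (SD, n = 4) in normal lungs. In both lung groups the ranges over mice separated Inmt from Npnt, Dcn from Thy1 and Cthrc1 from Lum, while neighbors among Npnt, Pdgfra and Tcf21 and among Thy1, Fgf10 and Cthrc1 overlapped. Tcf21 was separated from Dcn, and Lum from Fap, in tumor-bearing but not in normal lungs. In tumors the order was Npnt (2.36 TPM), Dcn (1.44), Thy1 (0.990), Pdgfra (0.719), Lum (0.497), Cthrc1 (0.267), Fap (0.165), Inmt (0.0736), Fgf10 (0.0223) and Tcf21 (0.00162). There the ranges separated Pdgfra from Lum, Lum from Cthrc1, Inmt from Fgf10 and Fgf10 from Tcf21, and the other neighbors overlapped. Of the summed TPM of the 10 genes, Inmt made up 75.5 to 84.8% in normal lungs, 73.7 to 81.0% in tumor-bearing lungs and 0.594 to 1.60% in tumors. Thy1 made up 0.226 to 0.470%, 0.365 to 0.634% and 10.3 to 19.4%, and Lum 0.0607 to 0.120%, 0.0782 to 0.117% and 6.81 to 8.28%. The sum itself was 90.4 to 192 TPM in normal lungs, 51.1 to 103 TPM in tumor-bearing lungs and 6.03 to 6.82 TPM in tumors. In TPM most genes were lower in tumor-bearing than in normal lungs. The median log2 difference of all genes tested was −0.54 on log2 TPM (pseudocount 0.1), beside 0.01 in the edgeR fit. Sums in TPM, here and above, are thus not to be compared between the lung groups.

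**Figure D4:**
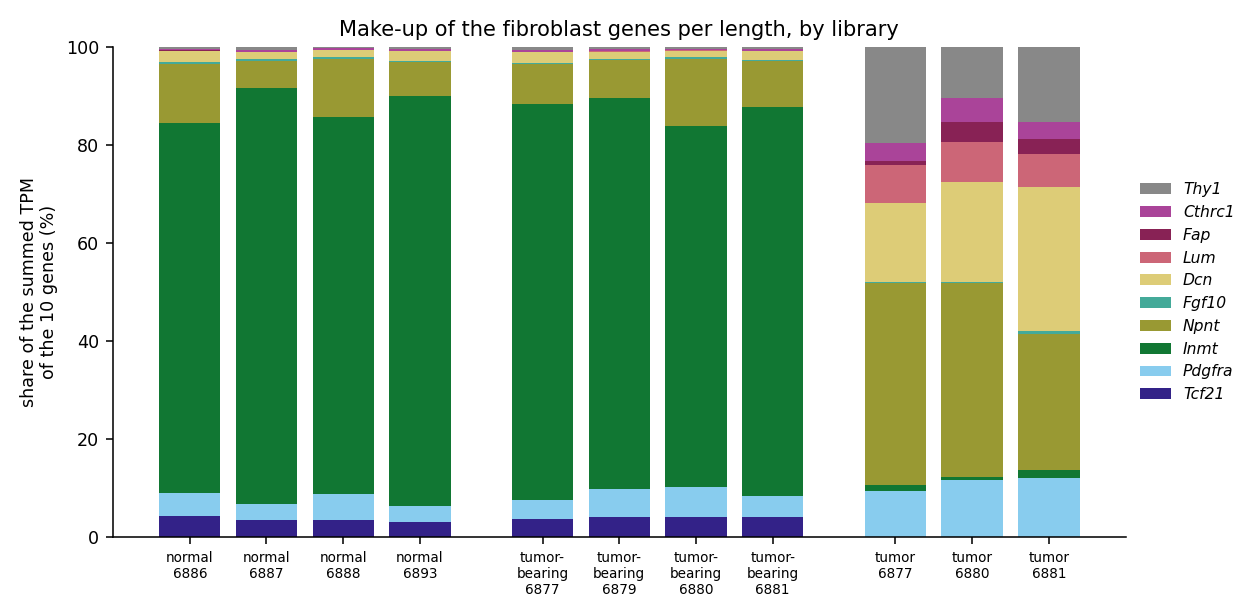
Share of each gene in the summed TPM of the 10 genes, in percent, as 1 stacked bar for each library. Inmt fills 73.7 to 84.8% of the bars of the lungs and at most 1.60% of those of the tumors, where Npnt, Dcn, Thy1, Pdgfra and Lum take most of the bar.

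Comparing each tumor with the lung of the same mouse gave the same directions for 7 genes in all 3 mice. The log2 differences of mice 6877, 6880 and 6881 were −2.32, −2.84 and −2.44 for Pdgfra, −9.47, −10.26 and −9.38 for Inmt, −1.31, −2.21 and −2.36 for Npnt and −3.21, −3.78 and −2.84 for Fgf10. Tcf21, on the same scale, was −7.89, −7.72 and −8.38, which the prior count limits. Lum was 2.85, 2.45 and 2.01, and Thy1 1.26, 1.03 and 1.40. Fap was −0.01, 3.69 and 2.24, Dcn −0.78, 0.23 and 0.19 and Cthrc1 0.12, 1.20 and −0.45, so that these 3 genes differed in sign between mice. In mouse 6877 both libraries are of batch 2, and in the other 2 mice the lung is of batch 1.

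The batch of preparation moved several of the lung genes. In the repeat libraries of mice 6886 and 6888 the log2 difference of batch 2 from batch 1 was −1.16 and −1.20 for Npnt, −0.98 and −0.66 for Pdgfra, −0.65 and −0.61 for Fgf10 and −0.56 and −0.31 for Tcf21. For Inmt it was −0.25 and 0.09 and for Lum 0.38 and −0.48, with no common sign. All tumors are of batch 2. Within batch 2 alone, with the normal lungs of that batch, the tumor differences were −10.05 for Tcf21, −2.10 for Pdgfra, −10.07 for Inmt, −1.31 for Npnt, −3.27 for Fgf10, 2.51 for Lum, 2.70 for Fap and 1.21 for Thy1, all past the threshold, and −0.31 for Dcn and −0.48 for Cthrc1, which were not. Tumor-bearing lung 6877 is the only one of batch 2. Without it the tumor-bearing comparison lost the calls of Npnt (−0.84, adjusted p = 0.125) and Thy1 (1.10, adjusted p = 0.0501), and without the batch term it gave −2.66 for Pdgfra, −1.90 for Npnt, −3.41 for Fgf10 and 2.42 for Lum.

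Between tumor-bearing and normal lungs none of the 10 genes changed by the test. By edgeR 9 were tested and 0 were called, with 0 at an unadjusted p below 0.05, where 2342 of 16727 genes had one, and Fap was too scarce to be tested; of all genes tested 0.0359% were called, 0.012% higher and 0.0239% lower. All 10 genes overlapped between these groups, where 2.65% and 3.05% of all genes were separated above and below. The log2 differences with 95% intervals were −0.14 (−0.42 to 0.14) for Tcf21, −0.11 (−0.42 to 0.19) for Pdgfra, −0.26 (−0.73 to 0.20) for Npnt, −0.34 (−0.80 to 0.11) for Dcn, −0.02 (−0.67 to 0.63) for Lum, −0.27 (−1.10 to 0.57) for Cthrc1 and 0.16 (−0.28 to 0.60) for Thy1. Inmt was nearest to the threshold with −0.26 (−0.52 to 0.01, adjusted p = 0.366), at 798 ± 72.6 CPM in tumor-bearing and 928 ± 57.6 CPM in normal lungs (SD, n = 4 each), followed by Fgf10 with −0.41 (−0.84 to 0.02, adjusted p = 0.374). For Inmt the difference was −0.22 within batch 1 and −0.34 within batch 2, where there is 1 tumor-bearing lung, and for Fgf10 it was −0.50 and −0.35. Of the 11 related lists, 10 had members tested here and none had a member called in the main fit. In 7 of them 1 to 4 members reached an unadjusted p below 0.05, which is to be read against the same 2342 of 16727 genes. Alternative fits called at most 1 FGF10 receptor and feedback gene higher and at most 1 adventitial fibroblast gene lower.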

How the data were processed

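RNA from 20 mg of snap-frozen tissue was made into libraries from 100 ng after removal of ribosomal RNA and sequenced with single reads of 75 bases, per the labels' protocols. Fragmentation depended on RNA quality; no value of it for single libraries was used here. Salmon (no version), DESeq2 1.18.1 and mm10 are named in the submitters' processing notes. The authors deposited estimated counts and TPM of 13 libraries. Over 15667 genes count and TPM were proportional up to a factor for each library, so the deposited counts carry an average gene length. IDs were named from GENCODE M21 (GRCm38; 46201 of 46679).

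Estimated counts were rounded. edgeR 4.0.16 (R 4.3.3; quasi-likelihood, TMM, filterByExpr) fitted group and preparation batch over 11 libraries for both tumor comparisons and over 8 lungs for the lung comparison, with the mouse as replicate and a Benjamini-Hochberg threshold of 0.05. SE are log2 fold changes over the root of F. Levels are TMM-scaled CPM, with a prior count of 2 on the log2 scale. A fold against 0 counts used a floor of 3 counts over the group, and folds on 1 to 3 counts have exact 95% intervals, which cover counting error only, since no molecular identifiers mark single molecules. The fits were tested on simulated data. Alternatives were DESeq2 1.42.0, voom and log2 TPM (pseudocounts 1 and 0.1) with limma 3.58.1, other scaling factors, no filter, protein-coding genes, other uses of batch and repeats, the mouse as a block and leaving out each library.

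Tumors and lungs of mice 6877, 6880 and 6881 are paired by animal; residuals of these pairs correlated across genes at 0.178, 0.0359 and −0.129. Named genes are the 10, the 2 genes of each related list with the smallest p in tumors against normal lungs, and the 4 nearest profiles of Tcf21 and of Cthrc1 among protein-coding genes whose mean log2 CPM was 0 or more. The members and lists were chosen with earlier results of these data known.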

Additional observations from a re-analysis of the deposited data

Results flagged for a closer look

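Lum in tumor-bearing lung 6877 stood apart from the other lungs of its group, at 1.35 CPM against 2.25 to 2.36 CPM in the other 3. On the log2 CPM scale the gap to its nearest neighbor was 0.913 of the range of the group. Of 20 groups tested in this way for the 10 genes, this was the 1 that passed, and chance alone flags about 1 in 20. The library holds 14 counts of Lum and is the 1 tumor-bearing lung of batch 2.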

How the results depend on the processing

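The counts of genes higher and lower in tumors than in normal lungs were 2 to 3 and 5 to 5 when 1 library was left out, and 2 to 3 and 4 to 5 against tumor-bearing lungs; in the lung comparison they were 0 to 0. Limma on log2 TPM gave 2 lower genes against tumor-bearing lungs with a pseudocount of 1 and 3 with 0.1, in place of 5; it lost Fgf10, Npnt and, with the larger one, Pdgfra. Against normal lungs it lost Thy1 (0.40 and 0.80). Of the related lists against tumor-bearing lungs, the larger pseudocount left 1 lower activated fibroblast gene in place of 4, 1 FGF10 gene in place of 3, 3 small leucine-rich proteoglycans in place of 5, 1 prolyl peptidase in place of 2 and 0 noncanonical Wnt and bHLH genes in place of 2 each. Lung levels of Lum, Fap and Cthrc1 rest on few counts. With the mouse as a replicate block, tumors against tumor-bearing lungs lost Fap (1.51), and the values of Dcn (−0.24) and Cthrc1 (−0.061) turned; it changed no other call of the 10 genes, and against normal lungs none. No paired analysis was possible for the lung comparison because its groups share no mice.

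Directions otherwise turned only in values that had not passed. Cthrc1 against normal lungs was −0.33 to 0.18 when 1 library was left out. Against tumor-bearing lungs Dcn was −0.22 to 0.43 and Cthrc1 −0.083 to 0.32 in the same way, and Dcn was −0.024 with protein-coding genes alone, −0.057 without the batch term, −0.24 with the batch 2 libraries of repeated mice and −0.065 with repeats summed. In the lung comparison Lum was −0.19 to 0.23 when 1 library was left out, 0.0025 with voom, 0.000725 with protein-coding genes alone, 0.16 without the batch term and 0.10 with repeats summed. Thy1 was −0.14 and −0.41 on log2 TPM with pseudocounts of 1 and 0.1 and −0.021 with repeats summed. Pdgfra was 0.071 without the batch term and 0.29 with repeats summed, Tcf21 0.084 with repeats summed, and Npnt 0.10 with the batch 2 libraries, 0.19 with repeats summed and 0.10 in batch 2 alone. The cause was not tested.

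Over all genes the lung comparison called 6, but 445 with DESeq2, 275 without a filter, 221 without tumor-bearing lung 6877, 90 and 65 on log2 TPM, 39 in batch 1 alone and 16 without normal lung 6887. It called 1 without the batch term or with the batch 2 libraries, 2 with repeats summed, and 0 without normal lung 6886 or without tumor-bearing lung 6879, 6880 or 6881. Tumors against tumor-bearing lungs called 8471 and 5322 on log2 TPM with a pseudocount of 1, where the higher calls were 4142 and the lower 1180, and the median of all genes moved to 0.08 (0.22 with 0.1). In the lung comparison that median moved to −0.23 and −0.54.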
